A study of Mus musculus with 144 samples.

Results

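Border macrophages are the macrophages of the perivascular spaces, meninges and choroid plexus, and related cells lie along retinal vessels and at the ciliary body and optic nerve head. They share many genes with microglia, the macrophages of the neural tissue itself, and are usually told apart by scavenger receptors and a few secreted proteins. Here 8 genes used as markers of such cells, Mrc1, Cd163, Stab1, Lyve1, Pf4, F13a1, Ms4a7 and Cbr2, were taken by symbol from a table of 55364 rows, and each symbol matched 1 row. They were followed across single retinal cells before and after the optic nerve was crushed, which injures the axons of retinal ganglion cells.

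The cells were sorted from the retinas of 16-week-old Iba1-EGFP mice, a strain in which a fluorescent reporter is driven by Iba1 (Aif1), a gene of microglia and other macrophages alike. There were 54 cells with no treatment, 54 from day 2 and 36 from day 4 after nerve crush, with 18, 18 and 12 of them on each of 3 plates, and every cell is labelled microglia. No animal is named, so each time point is 1 sample of cells: values are given with their spread over cells and within each plate, and no test was made. On each plate the time points lay in separate rows of wells, so position and time point cannot be told apart.

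Each value is an FPKM, fragments per kilobase of gene length and M reads assigned to genes, with M for 1e+06. Assigned reads had a median of 5.31 M over the cells (range 0.190 to 18.9 M) and were under 1 M in 3 of them. A value of 20 FPKM or more is called high below. At the median depth it stands for 76.6 reads of Pf4, the shortest of the 8 genes at 721 bases, and for 1093 reads of Stab1, the longest at 10288 bases. The label was checked against 13 microglia markers: P2ry12, a purine receptor, was high in 115 cells and Tmem119, a membrane protein of microglia, in 114 cells. Other markers of the list were high in fewer cells, among them P2ry13 in 84, Fcrls in 52, Slc2a5 in 48 and Sall1 in 35, so the label was met unevenly; these 4 were picked after their values were seen.

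None of the 8 genes was high in most cells, but they differed in how far low values spread. Stab1, which encodes the scavenger receptor stabilin-1, was above 0 in every cell, reached 1 FPKM in 59 and was high in 24. F13a1, the A subunit of the clotting transglutaminase factor XIII, was above 0 in 135 cells, reached 1 FPKM in 41 and was high in 18. Ms4a7, a membrane protein of the MS4A family, was above 0 in 127 cells, reached 1 FPKM in 45 and was high in 19. These 3 genes were therefore touched by reads in nearly every cell and abundant in few.

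Pf4, the chemokine platelet factor 4, was the only member at 1 FPKM or more in over 50% of cells, with 89 cells (61.8%). It was above 0 in 121 cells and high in 26. Mrc1, the mannose receptor CD206, was above 0 in 114 cells, reached 1 FPKM in 35 and was high in 15. Cd163, the receptor for haemoglobin bound to haptoglobin, was above 0 in 62 cells, reached 1 FPKM in 18 and was high in 8. Lyve1, a hyaluronan receptor also known from lymphatic vessels, was above 0 in 44 cells, reached 1 FPKM in 14 and was high in 4. Cbr2, a carbonyl reductase, was above 0 in 4 cells and high in 1. Lyve1 and Cbr2 fell short of 1 FPKM in 10% of cells, and the other 6 members are called measured.

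**Figure D1:**
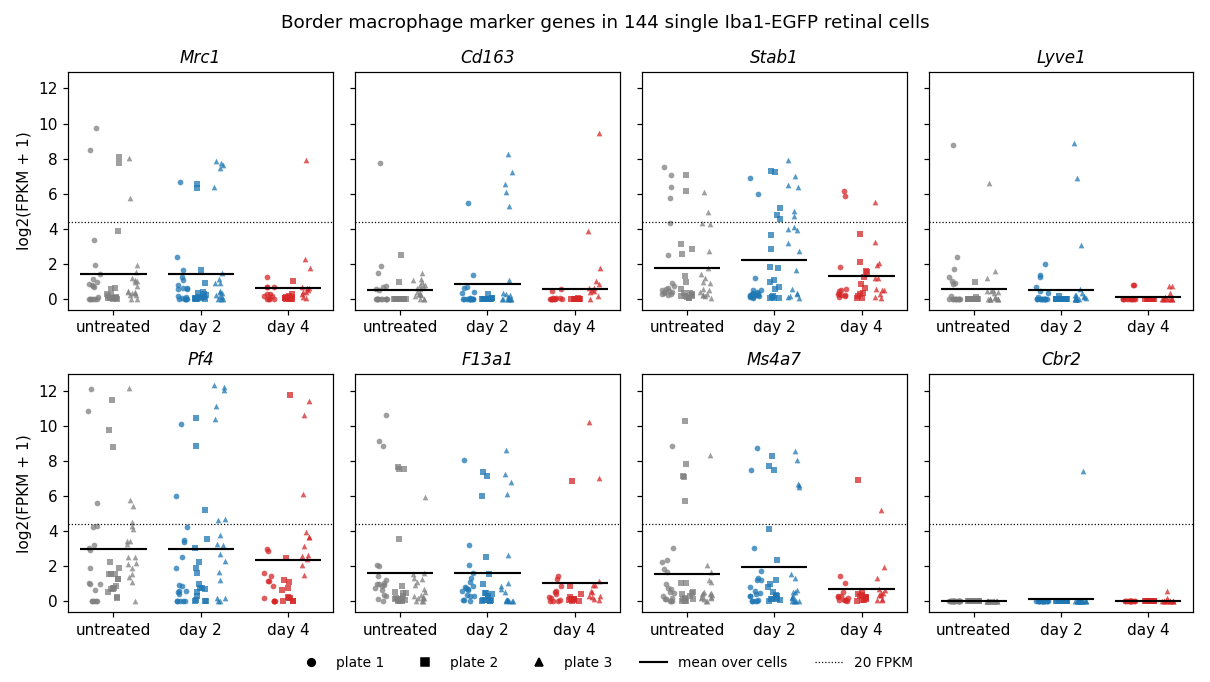
Level of each gene in each cell as log2(FPKM + 1), by time point and plate, with the mean over cells as a bar and 20 FPKM as a dotted line. Most cells lie near 0 for every gene but Pf4, and a few cells stand apart above the line, from 1 cell for Cbr2 to 26 cells for Pf4.

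For most members the high cells stood apart from the rest. The highest Mrc1 value under 20 FPKM was 13.6 and the lowest above it 52.5. For F13a1 the values on either side were 10.6 and 61.9 FPKM, for Lyve1 7.31 and 96.6 FPKM, for Ms4a7 16.6 and 35.6 FPKM, and for Cd163 13.7 and 38.03 FPKM. Stab1 had no such gap, with 18.9 FPKM just under and 22.6 FPKM just over the threshold and 14 cells between 10 and 40 FPKM.

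Pf4 had its gap higher up. In 9 cells it lay between 22.5 and 68.7 FPKM, in 0 cells between 100 and 400 FPKM, and in 17 cells between 453 and 5152 FPKM. Those 17 were made up of 6 untreated cells (11.1% of 54), 8 from day 2 (14.8% of 54) and 3 from day 4 (8.33% of 36).

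The members were high together in a small set of cells. Of all cells, 100 had no member high, 29 had 1 or 2, and 15 had at least 3, among them 14 with at least 4 and 4 with 7; no cell had all 8. Pf4 was high in 15 of these 15 cells, Mrc1 in 14, F13a1 in 14, Stab1 in 13, Ms4a7 in 12, Cd163 in 7, Lyve1 in 4 and Cbr2 in 1. Outside them, Pf4 was high in 11 cells, Stab1 in 11, Ms4a7 in 7, F13a1 in 4, Mrc1 in 1, Cd163 in 1 and Lyve1 and Cbr2 in 0. The set was defined by these values, so the counts describe it and show nothing beyond the definition. By count, high values of Mrc1, Cd163 and Lyve1 lay mostly in the shared cells, while Stab1 and Pf4 were often high elsewhere too. Cbr2 was high in 1 cell only. The 1 cell with Cd163 high outside the set had the highest Cd163 of all cells, 716 FPKM against at most 304 FPKM inside.

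**Figure D2:**
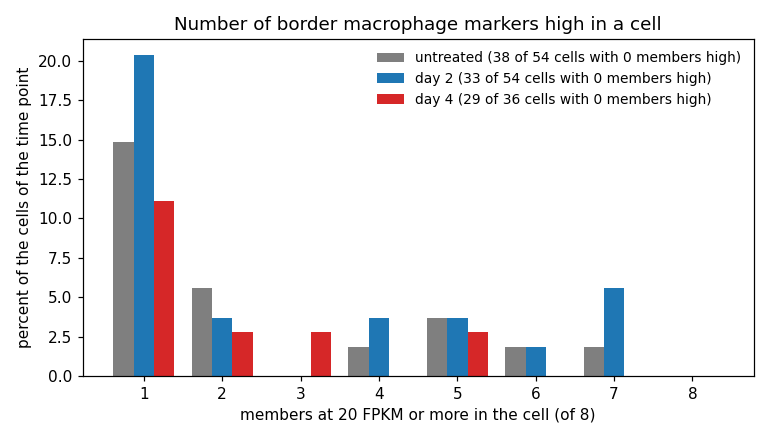
Percent of the cells of each time point with 1 to 8 of the genes at 20 FPKM or more; cells with 0 are counted in the legend. All 3 time points have cells with 1 or 2 genes high and cells with 5, and the 4 cells with 7 are 1 untreated cell and 3 cells of day 2.

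The members were also set against each other over all cells. After the mean of each time point and plate was subtracted, the Pearson correlation of log2(FPKM + 1) was 0.88 between Mrc1 and Pf4, 0.77 between Mrc1 and F13a1 and 0.74 between Pf4 and F13a1. Stab1 gave 0.57 with Mrc1, 0.46 with Pf4 and 0.27 with Lyve1. Cells of a plate share its handling and cells differ in depth, so these values describe these cells and carry no test. Of the 15 cells with Mrc1 high, 14 had Pf4 high (93.3%), which were 53.8% of the 26 cells with Pf4 high.

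**Figure D3:**
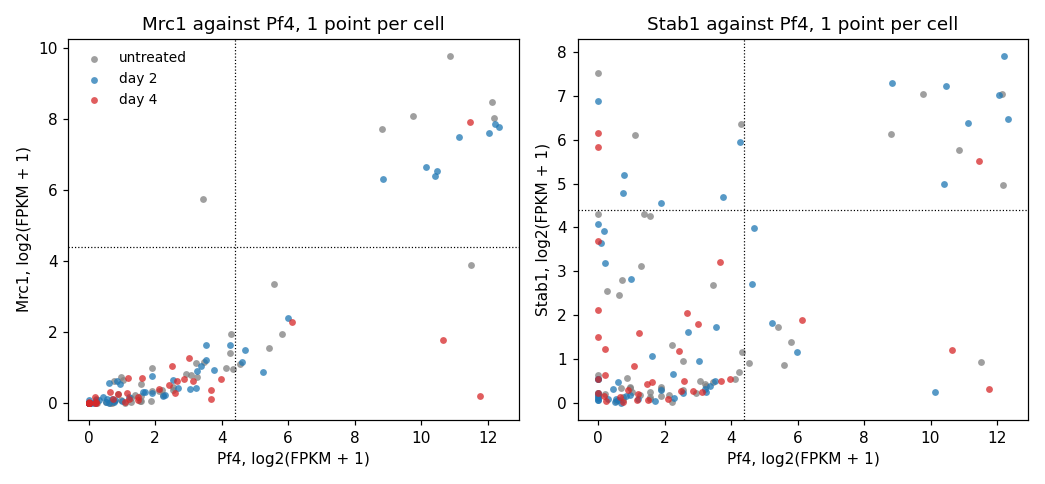
Mrc1 (left) and Stab1 (right) against Pf4 in each cell, as log2(FPKM + 1), with 20 FPKM as dotted lines. In the left panel 14 of the 15 cells with Mrc1 high also have Pf4 high, while in the right panel 11 of the 24 cells with Stab1 high have Pf4 under 20 FPKM.

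The start regions of 3 members are shown because Mrc1 and Pf4 were high in the same cells and Stab1 only in part. The sequences are the 250 bases before the gene start in RefSeq, build GRCm38.p6, read 5′ to 3′ on the gene's strand. Capitals mark GAGGAA on either strand (TTCCTC where it lies on the other), the core letters that the macrophage factor PU.1 and other ETS proteins can bind.
Mrc1 (chr2:14229164-14229413, + strand): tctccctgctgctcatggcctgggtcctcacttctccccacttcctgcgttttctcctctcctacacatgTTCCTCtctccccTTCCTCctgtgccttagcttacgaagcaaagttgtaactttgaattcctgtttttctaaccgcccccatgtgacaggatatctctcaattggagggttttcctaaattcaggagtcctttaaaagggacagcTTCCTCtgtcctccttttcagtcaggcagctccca
Pf4 (chr5:90772185-90772434, + strand): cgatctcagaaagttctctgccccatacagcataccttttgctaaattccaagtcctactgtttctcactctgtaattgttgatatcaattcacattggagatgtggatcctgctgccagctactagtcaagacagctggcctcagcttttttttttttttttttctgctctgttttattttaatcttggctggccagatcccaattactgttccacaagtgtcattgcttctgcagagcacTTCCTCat
Stab1 (chr14:31168642-31168891, - strand): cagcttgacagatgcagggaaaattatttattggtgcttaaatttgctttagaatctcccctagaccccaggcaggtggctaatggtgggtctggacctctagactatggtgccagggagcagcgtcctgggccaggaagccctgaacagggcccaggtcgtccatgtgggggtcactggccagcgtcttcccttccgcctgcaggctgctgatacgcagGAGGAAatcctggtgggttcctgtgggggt
The letters occur 3 times before Mrc1, once before Pf4, 8 bases from its start, and once before Stab1. A window was at hand for 7 of the 8 genes, with 2 starts each for F13a1 and Ms4a7, and 5 genes held a match in at least 1 window (Mrc1, Pf4, Stab1, F13a1 and Cbr2). Counted by window, 5 of the 9 windows of these genes held GAGGAA, with 1 of the 2 for F13a1, beside 23.3% of all 32851 RefSeq windows of 250 bases. TGCTGA, core letters of the site of the macrophage factor MAF, occurred in 1 of the 9 windows, before Stab1, and in 16.1% of all windows. A match is a description of letters and not of binding.

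The scavenger and endocytic receptors come first by time point. Mrc1 ranged from 0 to 872 FPKM (median 0.284) in untreated cells, from 0 to 233 FPKM (median 0.233) at day 2 and from 0 to 241 FPKM (median 0.164) at day 4. High values were found in 6 of 54, 8 of 54 and 1 of 36 cells in that order. The ranges overlapped throughout, the medians were all under 1 FPKM, and the 15 cells with at least 3 members high held 95.3%, 98.2% and 94.3% of the summed Mrc1 FPKM of the 3 time points.

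Cd163 had a median of 0 FPKM at every time point, with a highest value of 216 FPKM in untreated cells, 304 FPKM among the day 2 cells and 716 FPKM at day 4. A high value was found in 1 untreated cell, in 6 day 2 cells and in 1 day 4 cell. The 6 day 2 cells comprised 5 on plate 3 and 1 on plate 1. At day 4 a single cell, in well G3 of plate 3, gave 97.2% of the summed Cd163; it also had F13a1 at 1212 FPKM, but Pf4 at 3.28 FPKM, Mrc1 at 0.292 FPKM and P2ry12 at 6.55 FPKM.

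Stab1 ranged from 0.0195 to 183 FPKM (median 0.478) in untreated cells, from 0.01075 to 238 FPKM (median 0.534) at day 2 and from 0.0272 to 70.4 FPKM (median 0.441) at day 4. High cells numbered 8 of 54, 13 of 54 and 3 of 36. Its highest value at day 4 lay under the highest of both other time points, though the ranges overlapped. The cells with at least 3 members high held 48.8% of the summed Stab1 without treatment, 69.6% at day 2 and 20.8% at day 4, less than for Mrc1 at each time point.

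Of the 11 cells with Stab1 high outside the shared set, 10 had no other member high. Their Stab1 ran from 22.6 to 183 FPKM (median 61.0), P2ry12 was high in 10 of the 11 and Tmem119 in 11 of 11. Of the other 7 members, only Ms4a7 was high in any of them, in 1 cell. Siglec1, a sialic acid receptor on the further border macrophage list, was high in 2 of them, at 112 FPKM in well F5 of plate 1 at day 2, where P2ry12 was 3.19 FPKM, and at 62.9 FPKM in well G3 of plate 1 at day 4; it was picked after its values were seen. Exons of Stab1 overlap those of Nt5dc2, a nucleotidase-like gene that was also the gene most alike to Stab1 over cells (correlation 0.61). The overlap was taken without regard to strand, and the sources do not state whether reads were counted by strand. Of the Stab1 values 38.9% were not whole reads, so reads of the overlap may be shared. Nt5dc2 was high in 9 of the 24 cells with Stab1 high and in 2 of the 11 outside the shared set.

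Lyve1 had a median of 0 FPKM at every time point. It was high in 2 untreated cells, at 431 and 96.6 FPKM, and in 2 cells of day 2, at 470 and 118 FPKM. At day 4 it was high in 0 of 36 cells, which allows a share of up to 8.33% at 3 cells of 36 (the exact interval reaches 9.74%), and its highest value there was 0.708 FPKM. All 4 cells with Lyve1 high also had Mrc1, Stab1, Pf4, F13a1 and Ms4a7 high.

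Among the secreted proteins, Pf4 ranged from 0 to 4630 FPKM (median 2.7) in untreated cells, from 0 to 5152 FPKM (median 2.16) at day 2 and from 0 to 3469 FPKM (median 1.55) at day 4. The high cells were 10 of 54, 12 of 54 and 4 of 36. Of all members it had the highest level per length at each time point, with means of 289, 389 and 223 FPKM. Of the 17 cells above 400 FPKM, 15 were the cells with at least 3 members high. The other 2 were the untreated cell in well B1 of plate 2, with 2923 FPKM, and the cell of day 4 in well G5 of plate 3, with 1598 FPKM.

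F13a1 ranged from 0 to 1604 FPKM (median 0.504) in untreated cells, from 0 to 394 FPKM (median 0.425) at day 2 and from 0 to 1212 FPKM (median 0.211) at day 4. By count, 7 of 54, 8 of 54 and 3 of 36 cells were high. The highest untreated cell, well B1 of plate 1, and the highest cell of day 4, well G3 of plate 3, both lay outside the shared set, with 48.3% and 82.6% of the summed F13a1 of their time points. Exons of F13a1 overlap those of the predicted gene Gm30489, which was high in 8 of the 18 cells with F13a1 high and in 3 of the 4 outside the shared set, and 37.04% of the F13a1 values were not whole reads.

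Ms4a7 ranged from 0 to 1276 FPKM (median 0.373) in untreated cells, from 0 to 432 FPKM (median 0.449) at day 2 and from 0 to 121 FPKM (median 0.234) at day 4. In the same order 7 of 54, 10 of 54 and 2 of 36 cells were high. Of the 7 cells with Ms4a7 high outside the shared set, 3 were untreated and 4 from day 2, and 3 had no other member high. In 2 of those from day 2, in wells F3 of plates 1 and 2, Ccr2, the chemokine receptor of monocytes, was 918 and 245 FPKM. Ccr2 was high in no other cell. Ly6c2, another monocyte marker, was 0 and 0.00638 FPKM in these 2 cells. Of the microglia markers there, P2ry12 was 104 and 82.7 FPKM, Tmem119 243 and 299 FPKM and Cx3cr1 321 and 435 FPKM. Siglech was 4.10 and 52.4 FPKM and Sall1 0.289 and 0.161 FPKM. All of these genes were singled out after their values were seen, and the type of these cells was not tested.

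Cbr2 was listed at 0 in all 54 untreated cells, reached 171 FPKM in 1 cell of day 2, in well D3 of plate 3, and at most 0.497 FPKM at day 4. That cell had 7 members high, with Lyve1 the missing one at 7.31 FPKM.

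The 15 cells with at least 3 members high came from all 3 time points. They made up 5 of 54 untreated cells (9.26%), with an exact Clopper-Pearson 95% interval from 3.08% to 20.3%. Day 2 gave 8 of 54 (14.8%, from 6.62% to 27.1%), and day 4 gave 2 of 36 (5.56%, from 0.680% to 18.7%). The intervals cover counting error only, and the difference between time points was not tested. By plate 1, 2 and 3 the untreated counts were 2, 2 and 1, those of day 2 were 1, 2 and 5, and those of day 4 were 0, 1 and 1. Plate 3 thus held 5 of the 8 day 2 cells, and 3 of these lay in adjacent wells, D3, E3 and F3, with 7 members high each; without plate 3 the share at day 2 was 8.33%.

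Genes outside the 8 also differed between the 15 cells and the other 129. Of 25 further genes known from border macrophages, 19 were high in a larger share of the 15 cells and 3 in a smaller share. The 4 most abundant measured ones were Ms4a4a, another MS4A protein, high in 12 of 15 against 10 of 129 cells, Gas6, a ligand of TAM receptors, in 14 against 39, Wfdc17, a secreted protein, in 5 against 18, and Ccr1, a chemokine receptor, in 12 against 10. In all 15 cells 4 of the 25 were at 0, and Cd209f, Cd209g and Fcna among them were at 0 in every cell of the series. Folr2 was high in 5 against 1 cells and Siglec1 in 3 against 5. Ednrb and Igf1 ran the other way, in 0 against 1 and 0 against 2 cells. These genes were named after their values were seen. Slc40a1, the iron exporter ferroportin, also ran the other way at 0 of 15 against 11 of 129 cells and was picked out after its values were seen. Of the 19, Clec10a, Ccl24, Colec12 and Mgl2 rested on 1 of the 15 cells each. The same counts were not made over all measured genes, for this list or those below. Detected genes had a higher median in the 15 cells, 3958 against 3200, so the 19 have no background beside them.

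All 5 genes of class II antigen presentation on the list were high in a larger share of the 15 cells. For Ciita, below the filter and named after its values were seen, this rested on 1 of 15 against 0 of 129 cells. Cd74, the invariant chain, was high in 15 of 15 against 73 of 129 cells, with medians of 7062 and 32.6 FPKM. The class II chains were high in 13 against 48 cells for H2-Ab1, 13 against 11 for H2-Eb1 and 11 against 10 for H2-Aa. Apoe, the lipid carrier made by macrophages and glia, was at 5700 FPKM or more in every one of the 15 cells, with medians of 34155 FPKM there and 65.5 FPKM in the other cells.

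Microglia markers were present in the 15 cells but uneven. Between 4 and 12 of the 13 were high in each (median 8), against 2 to 13 (median 10) in the other cells. By share of high cells, 4 of the 13 were larger in the 15 cells and 8 smaller. P2ry12 was high in 11 of 15 against 104 of 129 cells, Tmem119 in 7 against 107 and Sparc, a matrix glycoprotein, in 9 against 118. The 4 with a larger share, named after their values were seen, were Fcrls (13 against 39), Cx3cr1 (14 against 114), Siglech (12 against 92) and P2ry13 (9 against 75). Sall1, a transcription factor of microglia singled out after its values were seen, was high in 0 of 15 against 35 of 129 cells. In 6 of the 15 cells P2ry12 and Tmem119 were both high and in 3 neither was, against 97 and 15 of the other 129 cells. The label microglia was thus met by most of the 15 cells on some markers and missed on others, and they are called here by the genes that define them.

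Lists for other cell types were mostly low in the 15 cells, with exceptions. Of 8 monocyte markers 6 were at 0 in all 15, Ly6c2 and Vcan among them, and the summed level of the list came from Lyz2, lysozyme, a gene of all myeloid cells (15 of 15 against 114 of 129 cells high). Of 8 markers of platelets and megakaryocytes, cells that also make Pf4 and F13a1, 3 were at 0 in all 15, Ppbp and Gp5 among them, 7 stayed under 20 FPKM and the summed level was 0 to 35.7 FPKM. Of 8 markers of blood and lymphatic endothelium, 7 stayed under 20 FPKM and the summed level was 0 to 31.9 FPKM. Dendritic cell markers stayed under 20 FPKM for 7 of 7. Vcan, Ppbp and Gp5 were at 0 in every cell of the series. The summed level of the other 129 cells had a median of 0.355 FPKM for platelet and megakaryocyte markers. It was 0.0387 FPKM for dendritic cell markers and 0 FPKM for endothelium. In the 15 cells these medians were 0.0980, 0.0215 and 0.00315 FPKM. Low levels on these lists were thus shared by most other cells and do not set the 15 apart. Of 10 rod photoreceptor markers, 7 stayed under 20 FPKM, and the summed level had a median of 0.272 FPKM but reached 642 FPKM, with 1 cell at 641 FPKM of Gnat1, the rod transducin subunit. Of 6 genes listed for Mueller glia, 3 stayed under 20 FPKM; Apoe and Glul, which macrophages also express, were high in 15 and 12 of the 15 cells, and Rlbp1, a retinoid-binding protein, in 1 at 33.8 FPKM. The part of RNA from such cells in the members' values was not tested. Assigned reads ran from 1.12 to 15.4 M (median 5.30) in the 15 cells and from 0.190 to 18.9 M (median 5.32) in the others, and detected genes had medians of 3958 and 3200.

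The measured genes most alike to each member over all cells, by the same correlation within time point and plate among 6137 eligible genes, overlapped between members. For Mrc1 they were Cd93, a lectin-like receptor (0.86), Msr1, scavenger receptor A (0.81), and Cd38, an NAD-consuming ectoenzyme (0.76). For Pf4 they were Cd38 (0.82), Dab2, an endocytic adaptor (0.81), and Msr1 (0.78). For Cd163 they were H2-Eb1, H2-Aa and Cd38 at 0.63 to 0.64, and for Lyve1 Cd38, Cd93 and H2-Aa at 0.52 to 0.57. F13a1 was closest to Apoe, Dab2 and Msr1 (0.72 to 0.74), and Ms4a7 to Apoe, Ms4a4a and the chemokine Ccl7 (0.73 to 0.77). Cd38 was high in 11 of the 15 cells and in 1 of the other 129, and Dab2 in 13 and 5. Both genes were chosen by likeness to members over these same cells, so these counts follow from that choice and add no support. After Nt5dc2, Stab1 was closest to Cd93 (0.57) and Fcrls, a microglia receptor (0.49). The values for Cbr2, 0.40 to 0.44, rest on 1 cell.

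Low Pf4 followed the plate column. Each plate had 6 columns of 8 wells, and 9 of the 18 columns held a cell at 1000 FPKM or more. All 23 cells with Pf4 at 0 lay in columns where no other well reached 1000 FPKM, the highest of those wells being 62.6 FPKM. A well at 1000 FPKM or more stood in the same column for 36 of the 63 cells at 1 to 20 FPKM, for 6 of the 9 cells at 20 to 100 FPKM and for 13 of the 55 cells under 1 FPKM. Over all cells it was 67 (46.5%), and 0 of these 67 had Pf4 at 0.

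The same count was made for each member among cells under 20 FPKM. Mrc1 reached 1 FPKM in 24.6% of cells with a high well in their column and in 8.33% of those without, Cd163 in 16.7% and 5.36%, Lyve1 in 20% and 5%, and Pf4 in 61.4% and 41.7%. F13a1 gave 22.6% and 14.1% and Ms4a7 23.4% and 16.7%, while Stab1 ran the other way at 25% and 40.6%. The part of the plate column in the low values, and so in the 61.8% of cells with Pf4 at 1 FPKM or more, was not tested. The 15 cells with at least 3 members high lay in 9 of the 18 columns, 10 of them sharing a column with another such cell, and column 4 of the 3 plates held 7 of the 15 (7 of 24 wells, 29.2%) against 0 to 3 in the other columns.

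**Figure D4:**
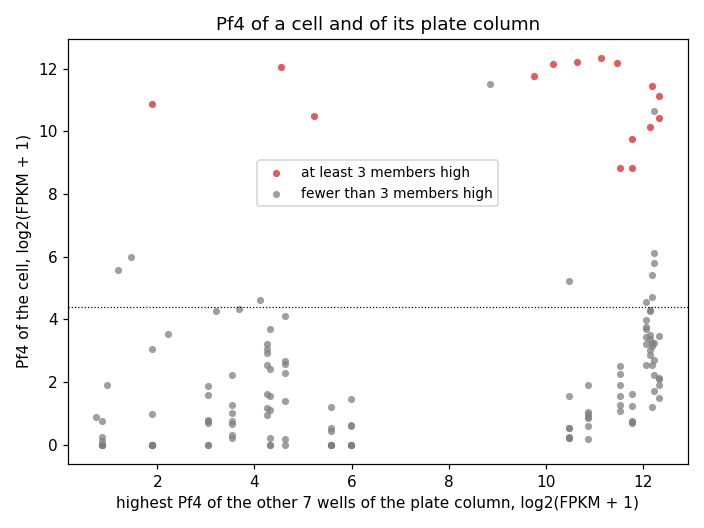
Pf4 of each cell against the highest Pf4 of the other 7 wells in its plate column, both as log2(FPKM + 1); red points have at least 3 of the 8 genes high and the dotted line is 20 FPKM. Cells at 0 on the vertical axis are found at column maxima of at most 62.6 FPKM.

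The change over time was taken as the difference of the mean over cells of log2(FPKM + 1), which understates changes of low genes. Between day 4 and untreated cells the median difference of the 6 measured members was -0.61, against 0.45 for all 8679 measured genes. It was -1.16 on plate 1, -0.96 on plate 2 and 0.47 on plate 3, and -0.17 without plate 1 and -1.24 without plate 3. A difference below 0 was found for 5 of the 6, beside 18.1% of all measured genes. In all 3 plates 3 of the 6 were lower, Mrc1, Stab1 and Ms4a7, beside 3.95% of all measured genes, and 0 of the 6 were higher in all 3, beside 43.4%. The lower median at day 4 thus came from plates 1 and 2, and on plate 3 the median went the other way. The members were high in the same few cells, so counts of members here and below do not rest on separate cells.

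Ms4a7 averaged 0.71 ± 1.4 at day 4 and 1.57 ± 2.61 in untreated cells on the log2 scale (SD over 36 and 54 cells), and the difference was -0.86. By plate the difference was -0.99, -1.58 and -0.01, so almost none of it was seen on plate 3. Mrc1 averaged 0.59 ± 1.36 at day 4 and 1.41 ± 2.5 in untreated cells, which put the difference at -0.82 (plates -1.33, -1.06 and -0.06). Stab1 averaged 1.28 ± 1.65 at day 4 and 1.78 ± 2.24 in untreated cells, and its difference was -0.50 (plates -0.78, -0.42 and -0.29). The SD over cells exceeded the difference for each of the 3 genes.

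Pf4 and F13a1 were lower at day 4 on plates 1 and 2 and higher on plate 3. Pf4 averaged 2.36 ± 3.09 at day 4 and 2.96 ± 3.24 in untreated cells (difference -0.60; plates -1.85, -1.02 and 1.06). F13a1 averaged 1.03 ± 2.23 at day 4 and 1.64 ± 2.69 in untreated cells (difference -0.61; plates -1.89, -0.90 and 0.95). Cd163 differed by 0.08, with 1.10 on plate 3, where the day 4 cell of well G3 lay. Lyve1, below the filter, averaged 0.0847 FPKM at day 4 and 10.1 FPKM in untreated cells, where the cells with at least 3 members high held 96.9% of the sum.

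A share of high cells smaller at day 4 than in untreated cells was found for 5 of the 6 measured members, beside 25.3% of the 8104 measured genes with a high cell. The shares were 2.78% and 11.1% for Mrc1, 8.33% and 14.8% for Stab1, 11.1% and 18.5% for Pf4, 8.33% and 12.96% for F13a1 and 5.56% and 12.96% for Ms4a7, at day 4 and in untreated cells. Each rested on 1 to 4 cells at day 4. The highest day 4 cells, at 3469 FPKM of Pf4 and 241 FPKM of Mrc1, lay below the highest untreated cells, at 4630 and 872 FPKM, and above the lowest of the high cells of each gene, at 22.5 and 52.5 FPKM.

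Between day 2 and untreated cells the median difference of the measured members was 0.19, beside 0.21 for all measured genes. The plates went apart, with -0.83, -0.22 and 1.33 on plates 1, 2 and 3, and without plate 3 the median was -0.37. Of the 6, 1 (F13a1) had a pooled difference below 0, beside 25.6% of all measured genes; 0 were lower in all 3 plates, beside 4.49%, and 0 were higher in all 3, beside 28.3%. The share of high cells was smaller at day 2 for 0 of the 6, beside 28% of measured genes with a high cell. Cd163 differed by 0.33 and Stab1 by 0.42, both with their largest plate value on plate 3 (1.43 and 1.53), and Mrc1 by 0.0031. The direction at day 2 thus depended on the plate.

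Between day 4 and day 2, which share their cells with the comparisons above, the median difference was -0.74, beside 0.25 for all measured genes, and the plates gave -0.69, -0.79 and -0.72. All measured members but Stab1, 5 of 6, were lower at day 4 in all 3 plates, beside 8.54% of all measured genes, and 0 were higher in all 3, beside 29.9%. Pooled over plates 6 of 6 were below 0, beside 29.2%, and for 6 of 6 the share of high cells was smaller, beside 31.6%. The members were high in the same few cells, so neither members nor plates are separate observations. Cells with at least 3 members high at day 2 and day 4 numbered 1 and 0 on plate 1, 2 and 1 on plate 2, and 5 and 1 on plate 3. On plate 1 the 1 day 2 cell held 89.5% of the summed day 2 Mrc1, 93.0% of Cd163, 91.0% of Pf4 and 92.5% of F13a1, but 0.210% of Ms4a7. Ms4a7 differed most, by -1.23 (plates -1.18, -1.17 and -1.34), followed by Stab1 at -0.92 with 0.40 on plate 1, Mrc1 at -0.82, Pf4 at -0.65, F13a1 at -0.56 and Cd163 at -0.25. For Cd163 and F13a1 the mean FPKM went the other way, with 20.5 FPKM at day 4 and 12.95 FPKM at day 2 for Cd163 and 40.8 and 25.96 FPKM for F13a1; well G3 of plate 3 gave 97.2% and 82.6% of the day 4 sums.

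**Figure D5:**
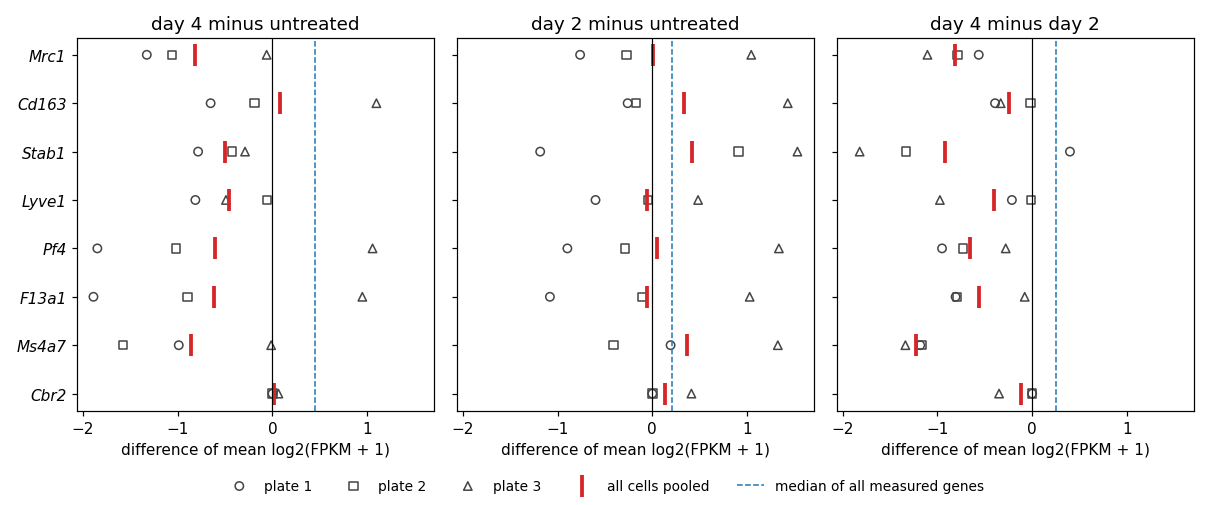
Difference of the mean log2(FPKM + 1) for each gene in 3 comparisons, pooled (red bar) and within each plate (open symbols), with the median over all measured genes dashed. Between day 4 and untreated cells the plate 3 symbol lies to the right of those of plates 1 and 2 for every gene but Lyve1, and between day 4 and day 2 most symbols lie left of 0.

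The other lists were set beside the members. The 12 measured genes of the further border macrophage list had a median of -0.19 between day 4 and untreated cells (plates -0.91, -0.10 and 0.69) and -0.48 between day 4 and day 2 (plates -0.44, -0.09 and -0.41). The 4 measured class II genes had a median of -0.57 between day 4 and untreated cells, with -1.45, -1.59 and 1.02 on plates 1, 2 and 3. Between day 4 and day 2 their median was also -0.57 (plates -1.03, -0.74 and 0.20). For the 13 microglia genes the medians were -0.43 between day 4 and untreated cells (plates 0.24, 0.37 and -1.27) and 0.08 between day 4 and day 2 (plates 0.43, -0.04 and -0.86). The sign thus differed between plates for class II and microglia genes in both comparisons. Detected genes per cell had medians of 2793 in untreated cells, 3473 in those of day 2 and 3965 in those of day 4, so cells of day 4 had the most. With that count as a covariate the members' median was -0.90 between day 4 and untreated cells and -0.91 between day 4 and day 2, both below the values without it.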

How the data were processed

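Per the labels' protocols, single sorted cells were lysed, their cDNA amplified in 1 tube and libraries made with the Nextera XT kit by tagmentation. The tools, per the submitters' processing notes, were cutadapt 1.16, Trim Galore 0.4.4, Trimmomatic 0.36, featureCounts 1.6.1 and STAR 2.7.2b on builds GRCm38.p6 and mm10. The sources used here do not state settings or strand. FPKM values were deposited by the authors in 1 table, with gene positions and lengths; the 8 genes have the same start and end there as in the GENCODE annotation of GRCm38 for 8 of 8.

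FPKM times length sums to 1e+09 in each cell, and the most frequent low value was taken as 1 read to recover depth. A median of 59.4% of values above 0 were whole reads within 0.01 read, so no count model was used. Measured genes had FPKM of 1 or more in 10% of cells; for repeated symbols the row of highest mean was kept. Levels were compared as log2(FPKM + 1). The labels name no animal, so nothing was tested; plates are given separately, and shares have exact Clopper-Pearson 95% intervals. Because PCR reads without molecular identifiers are not independent molecules, intervals and limits cover counting error only.

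The members and lists were chosen with earlier results of these data known. Named besides the members were the 3 measured genes most correlated with each (predicted genes, pseudogenes and ribosomal protein genes left out) and, per marker list, the 4 measured genes of highest mean; others are said to be picked afterwards. The procedure was tested on simulated data. Alternatives were other pseudocounts, thresholds and filters, leaving out a plate, the highest or the shallow cells, thinning to 2 M reads (M for 1e+06), and detected genes as a covariate. Python 3.11.15, numpy 2.4.6, pandas 2.3.3 and scipy 1.17.1 were used. A single gene of the microglia list is not reported here by name.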

Additional observations from a re-analysis of the deposited data

How the results depend on the processing

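The members' median difference between day 4 and untreated cells stayed below 0 in all 10 alternatives (-1.24 to -0.17). Between day 2 and untreated cells it ran from -0.37 to 0.49, below 0 in 2 of 10. Between day 4 and day 2 it stayed below 0 in all 10, at -0.93 with a pseudocount of 0.1, -0.47 with a pseudocount of 10, -1.16 on the log2 of the mean FPKM, -0.66 without plate 2, -0.91 with a covariate for detected genes, -0.83 without the highest cell of each time point and -0.61 over all 8 members. On the log2 of the mean FPKM, Cd163 (0.62) and F13a1 (0.63) turned to higher at day 4 than at day 2; the day 4 cell of well G3 on plate 3 gave 97.2% and 82.6% of their sums there. With high set at 1 FPKM, cells with at least 3 members high made up 35.2% of untreated cells, 33.3% of day 2 and 19.4% of day 4. The other 33 of 36 values of these shares moved by less than their counting intervals, leaving out Stab1 or Pf4 or cells under 1 M reads (M for 1e+06) among them, which were added after seeing the data. Thinning left out 4 untreated cells, 9 cells of day 2 and 0 of day 4. No paired analysis was possible because no result comes from a test, as the labels name no animal; differences within each plate are given as values in the report. The limits are 1 sample of cells per time point, 2 to 8 cells behind each share, and time points laid out by plate row.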
